A study of Mus musculus with 6 samples.

Results

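The genes described are those of the mitochondrial ribosomal proteins, taken as every protein-coding gene of the count table whose Ensembl identifier maps to a mouse symbol beginning with Mrpl or Mrps and a digit. They number 78 of 32377 identifiers, 49 with Mrpl symbols (large subunit) and 29 with Mrps symbols (small subunit), and all 78 had enough reads to be tested. The RNA-seq libraries form a TNFR2-deficient and a TNFR2-positive group of 3 each. Both are labelled Treg, regulatory T cells, the suppressive CD4+ T cells defined by Foxp3, their lineage transcription factor. The receptor TNFR2 is encoded by Tnfrsf1b and binds tumour necrosis factor at the cell surface. The labels give no strain, age, treatment or tissue, do not say whether TNFR2-deficient cells carry a mutation or were sorted as lacking the receptor, and do not say whether replicates came from separate mice. The p-values therefore rest on differences among replicate libraries whose source is not known, and that spread may be only technical.

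Mitochondria hold their own ribosome, which makes the few proteins encoded by mitochondrial DNA, all of them parts of the respiratory chain and ATP synthase. Its ribosomal RNAs come from the mitochondrial genome, but every one of its proteins is encoded in the nucleus, made in the cytosol and imported. The small subunit reads the mRNA and the large subunit joins the amino acids. Mitochondrial translation is known to support respiration, on which Treg rely.

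The libraries held 19296082 to 24038118 counts each. Tnfrsf1b stood at 8.30, 7.99 and 7.32 CPM (read counts relative to the library's TMM-scaled size) in the TNFR2-deficient replicates, against 84.6, 84.2 and 80.2 CPM in the TNFR2-positive replicates, in the direction of the labels. The cell type label fitted the TNFR2-positive libraries better than the TNFR2-deficient ones. All 6 Treg markers, Foxp3 among them, were lower in TNFR2-deficient libraries, where they summed to 23.8 to 29.1 CPM against 460 to 510 CPM, and Foxp3 itself averaged 1.44 against 75.5 CPM. All 7 markers of double-positive thymocytes, T cell precursors, were higher there (2732 to 2845 against 256 to 270 CPM). So were all 9 erythroid markers (18071 to 20620 against 4237 to 7011 CPM), 9 of 12 myeloid markers with 0 lower (1120 to 1211 against 580 to 654 CPM) and 4 of the 5 platelet markers found with 0 lower (14.1 to 16.7 against 4.71 to 5.57 CPM). Of 8 B cell markers 5 were higher and 1 lower (11629 to 12162 against 9398 to 10061 CPM). Of 7 thymic epithelial markers 3 were abundant enough to test and 0 passed (12.3 to 13.2 against 12.1 to 12.6 CPM), with Foxn1 and Krt5 at 0 in the TNFR2-positive libraries. The part of these cell types in the differences given here was not tested, and in bulk RNA a change in the cells present and a change of RNA per cell cannot be told apart.

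The mitochondrial ribosomal protein genes were mostly higher in the TNFR2-deficient libraries, by modest amounts. With edgeR's quasi-likelihood test and an adjusted p below 0.05 as the threshold, 64 of the 78 were higher, 1 (Mrps18b) was lower and 13 did not pass. Over all 17022 genes tested, 35.1% were higher and 34.2% were lower, so that most genes differed between these libraries. The median log2 fold change of the 78 genes was 0.47, with a range of -0.28 to 1.12, beside 0.04 over all genes tested, and 75 of the 78 were above 0. In 67 genes every TNFR2-deficient library lay above every TNFR2-positive one, and in 1 below, where 38.2% and 36.3% of all genes tested did so. The differences rarely reached large folds. Among the genes that were higher, 25 were at least 1.5-fold higher (17.2% of all genes tested) and 1, Mrpl58, was at least 2-fold higher (8.01% of all genes tested).

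**Figure D1:**
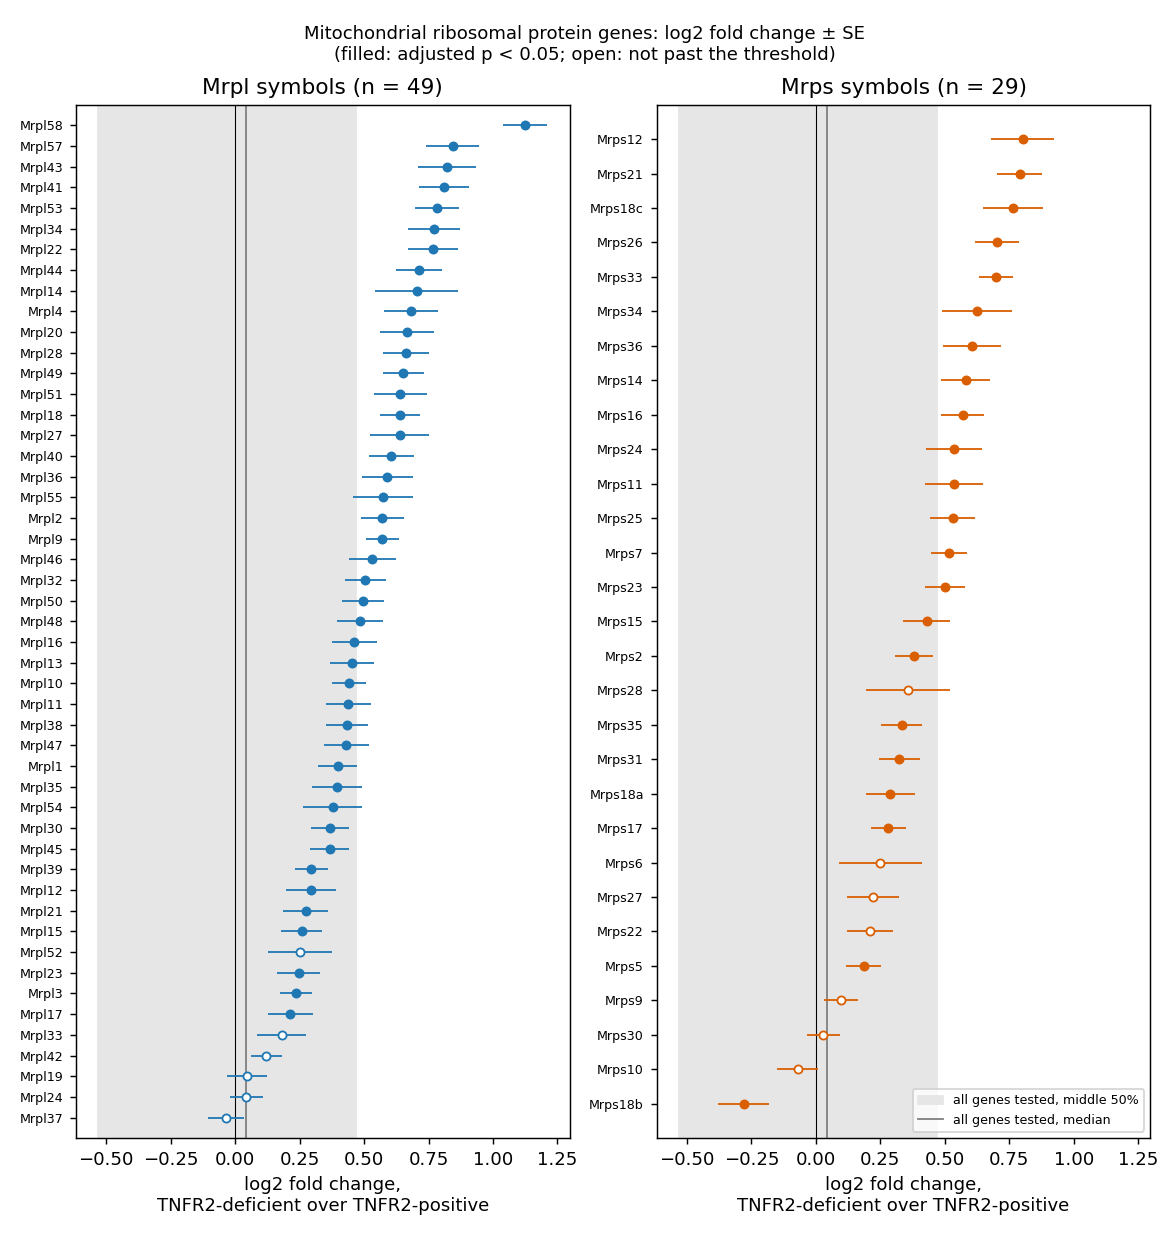
Log2 fold change (horizontal axis, TNFR2-deficient over TNFR2-positive, bars ± SE) of the 49 Mrpl genes (left) and 29 Mrps genes (right), filled where the adjusted p was below 0.05 and open where not, over the middle 50% (grey) and the median (grey line) of all genes tested. Of the 78 genes, 75 lie above 0, and Mrps18b is the 1 filled point below it.

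Genes of both subunits showed this pattern. Of the 49 Mrpl genes 43 were higher, 0 were lower and 6 did not pass, with a median log2 fold change of 0.48. Of the 29 Mrps genes 21 were higher, 1 was lower and 7 did not pass, with a median of 0.43. Symbols and positions in the ribosome differ for a few proteins: Mrps18a and Mrps30 sit in the large subunit, and Mrps36 is a subunit of the oxoglutarate dehydrogenase complex and not of the ribosome. Grouped by position, 44 of 51 large-subunit genes were higher and 0 lower (median 0.46), and 19 of 26 small-subunit genes were higher and 1 lower (median 0.47). Mrps36 itself stood at 21.9, 24.5 and 18.5 against 12.6, 14.7 and 15.4 CPM (log2 fold change 0.61, edgeR adjusted p = 0.000483), with groups that do not overlap, and lost its call with principal transcript length removed. No difference between the subunits was tested, since the genes were chosen as a list.

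Summed over the 78 genes, the level was 2260, 2380 and 2216 CPM in TNFR2-deficient libraries 1 to 3 against 1607, 1731 and 1794 CPM in TNFR2-positive libraries 1 to 3. The groups did not overlap, and the means of 2285 ± 84.8 and 1711 ± 95.2 CPM (SD, n = 3 each) stood at a ratio of 1.34. The Mrpl genes summed to 1497 ± 54.5 against 1112 ± 65.0 CPM, and the Mrps genes to 787.9 ± 31.4 against 598.5 ± 30.7 CPM. The Mrpl share of the summed CPM was 65.2%, 65.5% and 65.8% in the TNFR2-deficient libraries and 64.9%, 64.7% and 65.4% in the TNFR2-positive ones. These shares overlapped between the groups (65.5 ± 0.312% and 65.0 ± 0.320%), so that the balance of the 2 subunits' transcripts was nearly the same while their sum was not. Grouped by position, the large-subunit share was 68.8% in both.

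**Figure D2:**
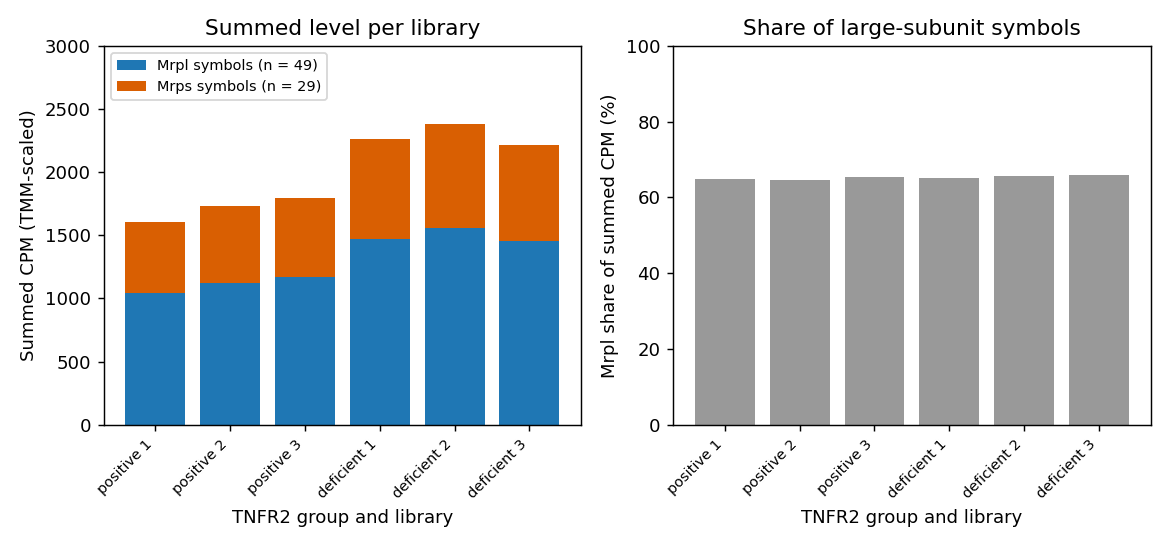
Summed TMM-scaled CPM of Mrpl (blue) and Mrps (orange) genes per library (left, stacked bars) and the Mrpl share of the sum in percent (right), 1 bar per library. The sums run from 1607 to 1794 CPM in the TNFR2-positive libraries and from 2216 to 2380 CPM in the TNFR2-deficient ones, and every share lies between 64.7% and 65.8%.

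TNFR2-positive library 1 stood apart from the other libraries of its group over all genes, and it gave the lowest of the 3 TNFR2-positive values in 58 of the 78 genes (35 of 49 Mrpl and 23 of 29 Mrps). The share of all genes with their lowest TNFR2-positive value in this library was not computed. Without it 63 of the 78 genes were higher and 0 lower, beside 34.2% higher and 33% lower over all genes tested. The median log2 fold change of the 78 was then 0.42.

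Mrpl58, a peptidyl-tRNA hydrolase built into the large subunit that frees stalled ribosomes, differed most. It stood at 35.7, 37.6 and 33.6 CPM in the TNFR2-deficient group and at 14.6, 16.7 and 17.8 CPM in the TNFR2-positive group, with a wide gap between the groups. The log2 fold change was 1.12 (SE 0.0856, adjusted p = 4.88e-07, edgeR), 2.18-fold higher. It was also called higher in each of the 19 other fits.

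Mrpl57, a mitochondria-specific protein of the large subunit, came next at 13.6, 15.1 and 13.2 against 7.5, 7.37 and 8.43 CPM (log2 fold change 0.84, SE 0.103, edgeR adjusted p = 2.02e-05). Mrpl43, another large-subunit protein, stood at 21.5, 26.1 and 22.4 against 11.1, 13.8 and 14.7 CPM (0.82, SE 0.113, edgeR adjusted p = 4.7e-05). In the annotation 33.4% of its exonic bases also belong to Twnk, the mitochondrial DNA helicase, whose own log2 fold change was -0.20, and without a stated strand setting the reads of such a stretch cannot be told apart. Mrpl41, whose protein lies in the large subunit, was 1.75-fold higher at 18.98, 22.2 and 19.2 against 10.5, 11.5 and 12.5 CPM (edgeR adjusted p = 1.87e-05). In each of these 3 genes the lowest TNFR2-deficient library lay above the highest TNFR2-positive one.

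In the small subunit the widest differences belonged to Mrps12 and Mrps21. Mrps12, the counterpart of the bacterial protein S12 at the decoding centre, stood at 12.8, 12.1 and 11.8 against 5.79, 7.88 and 7.44 CPM. Its log2 fold change was 0.80 (SE 0.123, edgeR adjusted p = 0.000111). Mrps21, a short protein related to bacterial S21, had 45.3, 53.0 and 48.2 against 24.9, 30.1 and 29.8 CPM (0.79, SE 0.0872, edgeR adjusted p = 8.98e-06). Per kilobase of exon Mrps21 was the most abundant of the 78 genes, at 66.1 CPM in TNFR2-deficient and 38.3 CPM in TNFR2-positive libraries. Neither gene's groups overlapped.

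**Figure D3:**
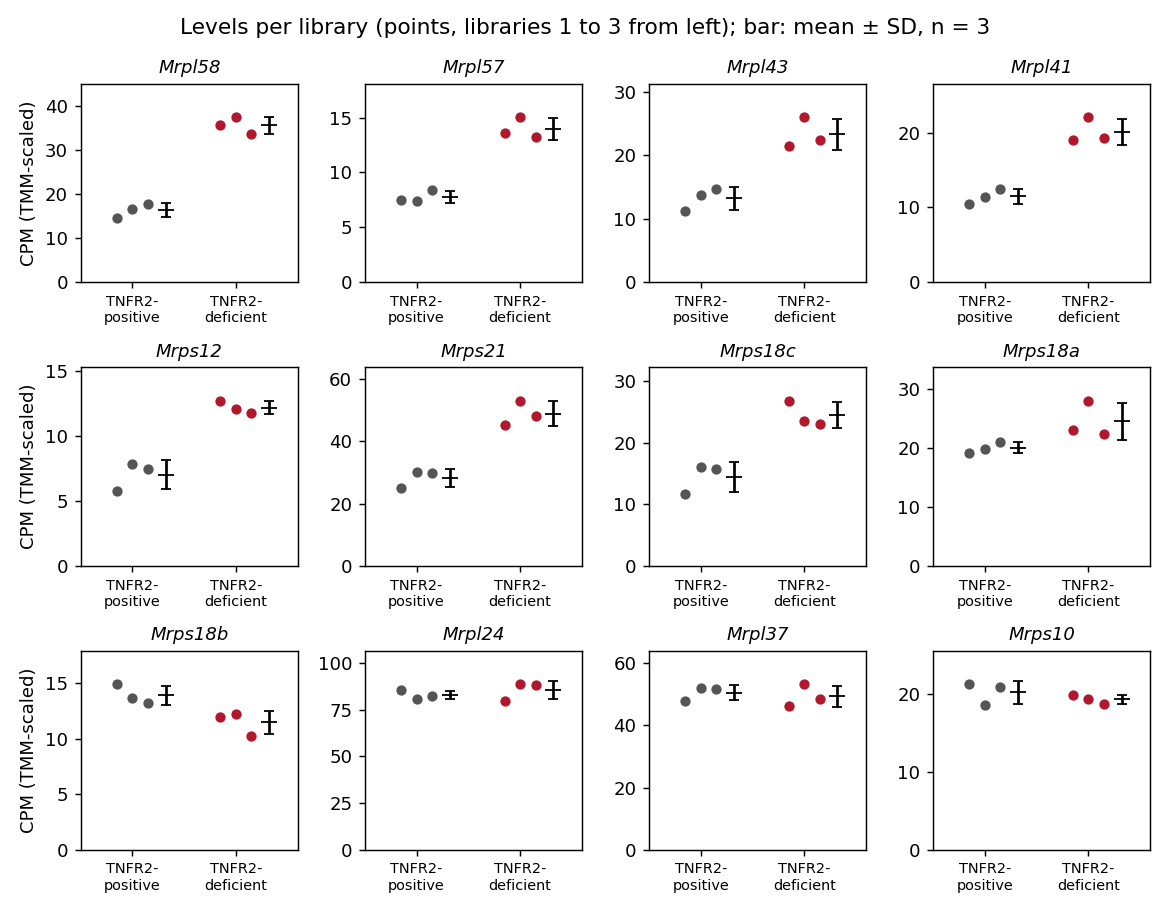
TMM-scaled CPM of 12 genes in each library (points, libraries 1 to 3 from left to right in each group, with the mean ± SD, n = 3, beside them), each panel on its own axis from 0. The groups are apart from Mrpl58 to Mrps18b, with Mrps18b alone lower in TNFR2-deficient libraries, and overlap in Mrpl24, Mrpl37 and Mrps10.

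Mammals carry 3 relatives of the bacterial protein S18, and their genes went different ways. Mrps18c, which takes the bacterial protein's place in the small subunit, was higher at 26.9, 23.5 and 23.1 against 11.7, 16.0 and 15.7 CPM (log2 fold change 0.76, SE 0.116, edgeR adjusted p = 0.000103). Mrps18a, the large-subunit relative, was slightly higher at 23.2, 28.1 and 22.4 against 19.2, 19.9 and 21.1 CPM (0.29, SE 0.0940, edgeR adjusted p = 0.0163). Mrps18b, which binds elsewhere in the small subunit, was the one gene of the 78 called lower, at 11.9, 12.2 and 10.3 against 14.9, 13.6 and 13.2 CPM. Its log2 fold change was -0.28 (SE 0.100, edgeR adjusted p = 0.0257), with groups that lie close to each other without overlap. Annotated genes overlap the exons of both: 23.2% of the bases of Mrps18c are shared with Gm43511 and 30.5% of those of Mrps18b with Gm16279.

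The lower call of Mrps18b was not firm: it was lost without TNFR2-deficient library 3 (log2 fold change -0.21, edgeR adjusted p = 0.108) and without TNFR2-positive library 1 (-0.23, adjusted p = 0.0591). It did not pass under upper-quartile scaling, with all genes of at least 1 count kept, or under glmTreat either. It was kept with exonic (-0.41), exonic and intronic (-0.56) and principal transcript length removed (-0.68). Over 19 alternatives the adjusted p ran from 4.32e-05 to 0.305. The ratio of Mrps18c to Mrps18b CPM within a library does not depend on scaling between libraries. It was 2.25, 1.93 and 2.25 in the TNFR2-deficient libraries and 0.787, 1.18 and 1.19 in the TNFR2-positive ones, a log2 difference of 1.05. The groups did not overlap. This pair was chosen after its values were seen, so the difference carries no test.

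At the other end of the higher genes, the differences were small in fold with the length relation kept. Mrps5, the counterpart of bacterial S5, was higher by 0.19 on the log2 scale (SE 0.0669, edgeR adjusted p = 0.0266) at 47.3, 50.9 and 44.7 against 40.5, 42.6 and 42.5 CPM. Mrpl17, a core protein of the large subunit, stood at 19.3, 19.04 and 17.5 against 16.4, 14.5 and 17.1 CPM (0.21, SE 0.0878, edgeR adjusted p = 0.0456), and kept the call in 9 of the 19 other fits. Mrpl3, near the site of peptide bond formation, was higher by 0.24 on the log2 scale, Mrpl23, a protein at the exit of the nascent chain, by 0.25, Mrpl15 by 0.26 and Mrpl12 by 0.29. Mrpl12 is the stalk protein of the large subunit and also binds the mitochondrial RNA polymerase. In these 6 genes the groups lay apart, with narrow gaps. With exonic and with principal transcript length removed, the log2 fold changes were larger for Mrpl17 (0.52 and 0.76) and Mrpl15 (0.62 and 0.46). The same held for Mrps5 (0.42 and 0.43) and Mrpl3 (0.48 and 0.40). Mrpl23 was larger in the first fit and negative in the second (0.33 and -0.16), and Mrpl12 was smaller in both (0.17 and -0.070).

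Several of these calls were lost when 1 library was left out, which also leaves fewer libraries to test. Without TNFR2-deficient library 2, the log2 fold change and edgeR's adjusted p were 0.13 and 0.152 for Mrps5, 0.19 and 0.128 for Mrpl17, 0.21 and 0.0992 for Mrpl23, 0.19 and 0.0829 for Mrpl15, 0.23 and 0.102 for Mrpl12, and 0.17 and 0.106 for Mrps18a. Mrps5 also lost its call without TNFR2-deficient library 1 (0.18, edgeR adjusted p = 0.0743) or TNFR2-positive library 2 (0.20, adjusted p = 0.0509). Mrpl23 lost its call without TNFR2-deficient library 3 (0.25, edgeR adjusted p = 0.0553) or TNFR2-positive library 1 (0.16, adjusted p = 0.0611). Mrpl17 lost its call without TNFR2-deficient library 1 (0.18, edgeR adjusted p = 0.146), TNFR2-deficient library 3 (0.25, adjusted p = 0.0531) or TNFR2-positive library 2 (0.15, adjusted p = 0.176). Without TNFR2-deficient library 3 the fold changes of Mrpl23 and Mrpl17 were no smaller than with it. Mrpl3 kept its call without each library.

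The 13 genes that did not pass bore symbols of both subunits. The Mrpl genes were Mrpl52 (log2 fold change 0.25), Mrpl33 (0.18), Mrpl42 (0.12), Mrpl19 (0.05), Mrpl24 (0.04) and Mrpl37 (-0.03), and the Mrps genes were Mrps28 (0.36), Mrps6 (0.25), Mrps27 (0.22), Mrps22 (0.21), Mrps9 (0.10), Mrps30 (0.03) and Mrps10 (-0.07). Mrpl24 was the most abundant of the 78 genes, at 79.8, 88.6 and 88.2 CPM in TNFR2-deficient and 85.4, 80.9 and 82.5 CPM in TNFR2-positive libraries (edgeR adjusted p = 0.546), with groups that overlap. Per kilobase of exon it stood at 37.9 and 36.8 CPM, and 26.3% of its exonic bases also belong to Rrnad1. Mrpl37 and Mrps30 encode related mitochondria-specific proteins of the large subunit. Mrpl37 stood at 46.4, 53.2 and 48.4 against 47.8, 52.0 and 51.9 CPM, and Mrps30 at 37.4, 36.0 and 35.2 against 34.1, 35.2 and 37.2 CPM. The groups overlapped in 10 of these 13 genes and lay apart in Mrpl42, Mrps27 and Mrps22.

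Among the other genes most abundant per kilobase of exon, all were higher in TNFR2-deficient libraries. In the large subunit Mrpl18 stood at 36.8 against 23.6 CPM per kilobase (log2 fold change 0.64), Mrpl34 at 26.5 against 15.5 (0.77) and Mrpl2, a protein at the peptidyl transferase centre, at 25.2 against 16.9 (0.57). In the small subunit Mrps23 stood at 32.6 against 23.1 CPM per kilobase (0.50), Mrps18c at 22.8 against 13.4 (0.76) and Mrps7, a protein of the subunit's head, at 21.46 against 15.001 (0.52). Over the 78 genes the levels per kilobase ran from 1.47 CPM in TNFR2-positive libraries for Mrps25 to 66.1 CPM in TNFR2-deficient libraries for Mrps21. In the annotation 69.8% of the exonic bases of Mrps25 also belong to Nr2c2. The order of the genes' mean CPM was much the same in both groups, with a Spearman correlation of 0.945 across the 78 genes, given as a description.

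The start regions of these genes were searched for 3 motifs known from nuclear genes of mitochondrial proteins. NRF1, GABP (an ETS factor) and YY1 are transcription factors known to bind near the start sites of many such genes. Promoter windows of 300 bases (250 before to 50 after the start) from RefSeq, build GRCm38.p6, were found for 69 of the 78 genes. Both strands were searched for GCGC and TGCGC with any 1 base between them (NRF1), CCGGAAG (the ETS core) and AAGATGGC (YY1), and a base run could count for more than 1 motif. The stretches below are the parts of the 250 upstream bases outside annotated exons. They are shown because they pair the gene with the largest difference (Mrpl58, chr11:115403502-115403751, plus strand), a gene with the smallest of differences and 2 kinds of motif (Mrpl17, chr7:105811100-105811337, minus strand), the gene of the polymerase-binding protein (Mrpl12, chr11:120484387-120484612, plus strand) and a gene of large difference with no match in its window (Mrpl41, chr2:24975099-24975348, minus strand). Each runs 5′ to 3′ on the gene's strand, with motif matches in capitals.
Mrpl58: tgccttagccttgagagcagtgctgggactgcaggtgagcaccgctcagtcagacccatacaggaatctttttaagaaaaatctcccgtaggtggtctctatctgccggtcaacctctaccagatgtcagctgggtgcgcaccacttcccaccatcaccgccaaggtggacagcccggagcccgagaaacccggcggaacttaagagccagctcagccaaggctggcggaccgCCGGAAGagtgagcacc
Mrpl17: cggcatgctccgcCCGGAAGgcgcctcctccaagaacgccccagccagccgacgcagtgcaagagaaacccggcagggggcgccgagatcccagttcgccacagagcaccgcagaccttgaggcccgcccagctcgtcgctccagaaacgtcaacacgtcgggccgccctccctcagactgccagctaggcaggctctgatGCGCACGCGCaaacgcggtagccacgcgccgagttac
Mrpl12: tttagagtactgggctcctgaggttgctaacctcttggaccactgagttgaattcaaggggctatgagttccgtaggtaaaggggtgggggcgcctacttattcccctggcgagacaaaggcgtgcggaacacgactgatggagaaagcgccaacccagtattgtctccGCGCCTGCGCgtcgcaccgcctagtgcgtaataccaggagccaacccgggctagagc
Mrpl41: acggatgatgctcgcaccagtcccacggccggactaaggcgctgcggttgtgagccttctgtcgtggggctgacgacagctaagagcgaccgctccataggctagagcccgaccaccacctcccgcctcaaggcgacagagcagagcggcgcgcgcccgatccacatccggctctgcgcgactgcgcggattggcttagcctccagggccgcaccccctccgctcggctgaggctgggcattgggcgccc

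Mrpl58 holds an ETS core a few bases from the stretch's end, Mrpl17 an ETS core near the start and an NRF1 match near the end, and Mrpl12 an NRF1 match. Over the whole windows, a gene with several windows was counted once if any of them matched. The NRF1 motif was found in 13 of 69 genes (18.8%, against 5.19% of 27025 genes with a window). The ETS core was found in 26 (37.7% against 9.93%) and the YY1 motif in 12 (17.4% against 3.19%). At least 1 of the 3 was found for 43 of 69 genes (62.3% against 16.4%). Among genes called higher 35 of 57 had at least 1, and among the others 8 of 12 did. The 27025 genes were not limited to protein-coding genes or to genes expressed in these libraries, and the share among such genes was not computed. A match describes letters in a window and does not show binding.

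Gene length moved with the fold change over the whole table, and these genes are short. The median exonic length, the bases covered by any annotated exon of the gene, was 2533 (607 to 8487) for Mrpl and 2172 (739 to 8631) for Mrps genes, against 4393 over all protein-coding genes tested. Across the 78 genes the log2 fold change and the exonic length had a Spearman correlation of -0.558 (-0.542 over 49 Mrpl genes and -0.575 over 29 Mrps genes), and across 16623 genes tested it was -0.298. With the length of the principal transcript, the main isoform of a gene, the order was the other way, at -0.222 across the 78 genes and -0.454 across 12957 genes tested. These are descriptions across genes of the same libraries.

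Set beside protein-coding genes of the same length, the members were called higher more often in every length class, and their median was nearest to that of other genes in the shortest class. Under 1500 bases of exon 18 of 20 members were higher (median 0.64), where 66.1% of 886 genes were (median 0.55). From 1500 to 3000 bases 23 of 27 were higher (median 0.50), against 60.6% of genes (median 0.38). From 3000 to 5000 bases 14 of 17 were higher (median 0.40), against 41.5% (median 0.12). At 5000 bases or more 9 of 14 were higher (median 0.23) and 0 lower, against 18.5% higher and 56.8% lower (median -0.33). The longest members fell in this last class: Mrpl15 (8487 bases) at 0.26, Mrpl48 (8152 bases) at 0.48 and Mrpl13 (7936 bases) at 0.45 among Mrpl genes, and Mrps35 (8631 bases) at 0.33, Mrps10 (8079 bases) at -0.07 and Mrps30 (6666 bases) at 0.03 among Mrps genes.

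**Figure D4:**
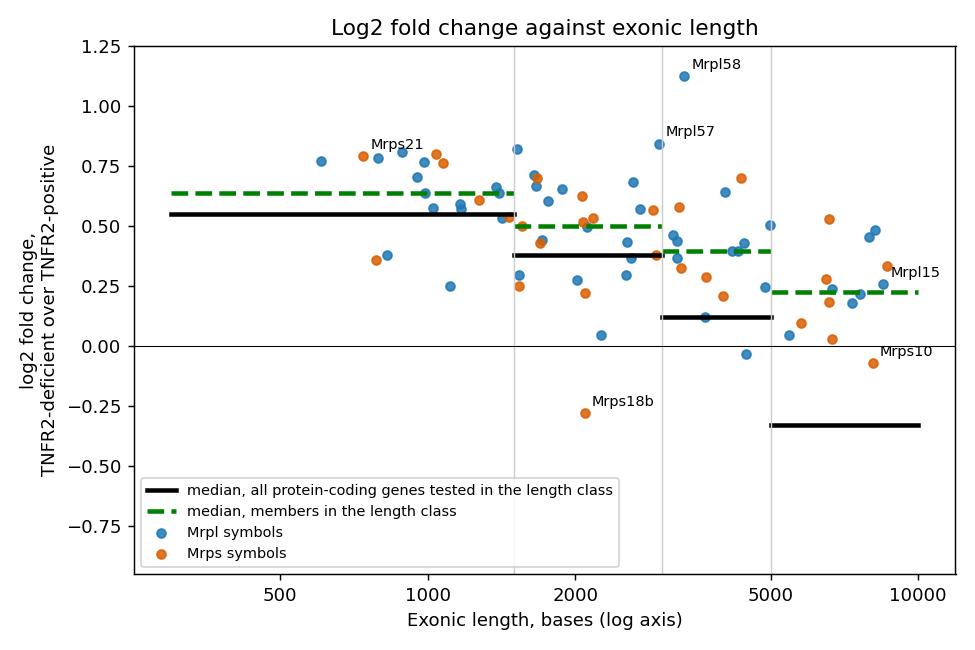
Log2 fold change (vertical axis, TNFR2-deficient over TNFR2-positive) against exonic length in bases (log axis) for the Mrpl (blue) and Mrps (orange) genes, with the median of all protein-coding genes tested (black) and of the 78 genes (green, dashed) in 4 length classes. Both medians fall with length, to -0.33 and 0.23 in the longest class.

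How much of the difference stayed once a length relation was removed differed with the length measure. With each library's relation to exonic length removed, 67 of the 78 were higher and 1 lower (62 of the 67 shared with the 64), with a median of 0.46, beside 38.8% of all genes. With principal transcript length removed instead, 41 were higher and 6 lower, with a median of 0.24, beside 31.6% of genes higher and 32.9% lower. By that measure 20 of 25 members under 1000 bases were higher against 68.9% of genes, 16 of 22 from 1000 to 1500 bases against 68.2%, 9 of 10 from 1500 to 2500 bases against 54.5%, and 19 of 21 of 2500 bases or more against 22.8%. In all, 39 genes (27 Mrpl and 12 Mrps) were higher both with the relation kept and in each of 3 fits that removed a length relation, as were 26.2% of the 12597 protein-coding genes tested. Mrpl58 kept a log2 fold change of 1.06 with exonic and 1.01 with principal transcript length removed. Mrpl42, Mrpl24, Mrpl37, Mrps9, Mrps10 and Mrps18b were called lower in at least 1 of those fits, and Mrps9 and Mrps10 were called higher with exonic length (0.27 each) and lower with principal transcript length removed (-0.25 and -0.48).

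**Figure D5:**
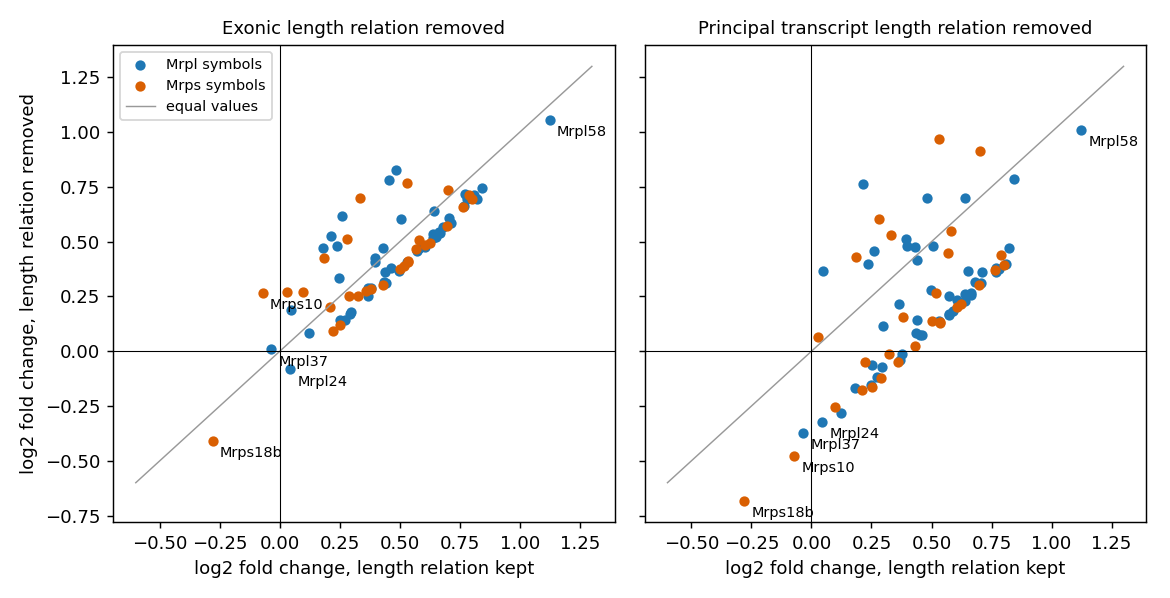
Log2 fold change of the 78 genes with the length relation removed (vertical axis) against the value with it kept (horizontal axis), for exonic length (left) and principal transcript length (right), with the line of equal values in grey. On the left the points lie near the line or above it at low values, with a median of 0.46, and on the right most short genes shift down, to a median of 0.24 and 6 genes called lower.

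Overlapping genes add to the doubt about single members. Of the 78, 33 share exonic bases with another annotated gene, and 17 share more than 10% of them with a single such gene. Bases shared with several genes were not added up for this percentage. Among the 61 others 52 were higher and 0 lower, beside 35.1% higher and 34.2% lower over all genes tested. Those shares are not limited to genes with little overlap.

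Counts for the remaining parts of the mitochondrial translation system are given beside the 35.1% higher and 34.2% lower over all genes tested. Of 5 ribosome subunits that carry other names 4 were higher, among them Chchd1 (35.5 ± 2.77 against 21.8 ± 1.73 CPM, SD, n = 3 each, log2 fold change 0.71) and Aurkaip1 (0.63). The fifth, Ptcd3, a pentatricopeptide repeat protein of the small subunit, was lower at 66.8 ± 3.65 against 85.6 ± 4.40 CPM (-0.36, edgeR adjusted p = 0.000428). That call was lost with exonic length removed (-0.10, edgeR adjusted p = 0.166).

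Of 26 assembly and rRNA-modifying factors 13 were higher and 3 lower, with a median log2 fold change of 0.25. Ddx28, an RNA helicase of large-subunit assembly, stood at 12.5 ± 0.748 against 6.73 ± 0.728 CPM (0.90), and Ngrn, a factor of large-subunit rRNA stability, at 29.5 ± 2.17 against 15.9 ± 1.64 CPM (0.89). Fastkd2, an RNA-binding protein of mitochondrial RNA granules, was lower (-0.51), as was the helicase Dhx30 (-0.31). Dhx30 was called higher with exonic length removed (0.15, edgeR adjusted p = 0.0422) and with exonic and intronic length removed (0.14, adjusted p = 0.0472).

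Of 15 genes listed as translation factors 6 (40%) were higher and 6 (40%) lower (median 0.15), shares near those of all genes tested. That list also holds Lrpprc, Slirp and Oxa1l, which are not translation factors in the strict sense. The elongation factor Tufm (0.46) and its exchange factor Tsfm (0.39) were higher, whereas Lrpprc, which stabilises mitochondrial mRNAs, was lower at 47.95 ± 0.690 against 85.3 ± 5.66 CPM (-0.83), and Gfm2, a factor of ribosome recycling, was lower too (-0.66). Of 20 genes listed with the mitochondrial aminoacyl-tRNA synthetases 6 (30%) were higher and 7 (35%) lower (median -0.09), again near the background. That list also holds the amidotransferase subunits Qrsl1, Gatb and Gatc, of which Gatc was lower. Vars2, the valine enzyme, was 2.58-fold higher at 54.3 ± 1.76 against 21.1 ± 0.896 CPM and Aars2, the alanine enzyme, 1.90-fold higher, while the isoleucine enzyme Iars2 (-0.53) and the threonine enzyme Tars2 (-0.43) were lower. Median exonic length was 5173.5 bases in the synthetase list.

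In the list of mitochondrial transcription and DNA maintenance 4 of 8 were higher and 2 lower. The transcription elongation factor Tefm (0.97) and the single-strand binding protein Ssbp1 (0.45) were higher, and the DNA polymerase Polg (-0.52) and the helicase Twnk (-0.20, edgeR adjusted p = 0.0295) were lower. Twnk lost its call without TNFR2-deficient library 1 (-0.17, edgeR adjusted p = 0.113) or TNFR2-positive library 2 (-0.19, adjusted p = 0.0794), and Polg lost its call with exonic length removed (-0.059, adjusted p = 0.406). Of 10 nuclear regulators of mitochondrial genes 2 were higher and 6 lower (median -0.57). Esrra, a nuclear receptor of energy metabolism, was higher by 0.40 and Gabpb1, a GABP subunit, by 0.19. Gabpb2, the other beta subunit, was lower at 156.7 ± 2.02 against 337.6 ± 45.8 CPM (-1.11) and Myc was lower (-0.76). Gabpa, a further GABP subunit, was lower too (-0.63, edgeR adjusted p = 2.46e-05). Nrf1 (-0.03) and Yy1 (-0.11) did not pass. The Gabpb1 call was lost without TNFR2-deficient library 1 (0.18, edgeR adjusted p = 0.0574), TNFR2-positive library 2 (0.16, adjusted p = 0.0691) or TNFR2-positive library 3 (0.17, adjusted p = 0.0508), with fold changes about as large as the 0.19 over all 6 libraries.

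Transcripts of the mitochondrial genome took 6.28 ± 0.126% of the counts in TNFR2-deficient and 4.99 ± 0.311% in TNFR2-positive libraries (SD, n = 3 each). Of 15 such genes 12 were higher and 3 lower (median 0.37). The ribosomal RNAs differed in direction: mt-Rnr1, the rRNA of the small subunit, stood at 531, 545 and 501.5 against 258, 296 and 308 CPM (0.87, edgeR adjusted p = 1.02e-06), and mt-Rnr2, the rRNA of the large subunit, at 1107, 1105 and 1059 against 1273, 1233 and 1277 CPM (-0.21, edgeR adjusted p = 0.00487). The groups lay apart in both genes. The mt-Rnr2 difference was 0.0044 with exonic and intronic length removed. mt-Cytb was higher by 0.49 and mt-Nd5 was lower (-0.47). Libraries were made with oligo-dT capture, and mitochondrial rRNAs carry short tails if any, so these levels are of captured RNA.

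These lists also changed with the length measure. With principal transcript length removed, 5 genes of the assembly list were higher and 6 lower, and 2 of the translation factor list were higher and 5 lower. In the same fit 5 mitochondrially encoded genes were higher and 4 lower (median 0.096), beside 31.6% higher and 32.9% lower over all genes. With exonic length removed, 4 nuclear regulators were higher and 5 lower (median -0.37), beside 38.8% and 29.2% of all genes. Tsfm, Gabpb1, Twnk, mt-Cytb, Dhx30 and Polg lost their calls with principal transcript length removed, and Iars2 lost its call with exonic and intronic length removed.

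The 2 gene groups most like the mitochondrial ribosomal proteins gave similar counts. Of 79 cytosolic ribosomal protein genes tested 75 were higher and 0 lower, with a median of 0.35, and of 80 nuclear genes of the respiratory chain and ATP synthase tested 72 were higher and 1 lower, with a median of 0.57. The mitochondrial ribosomal proteins lay between them at 0.47. Median exonic lengths were 1770 and 1631 bases in those lists and 2394 in the 78 genes, and no difference between the lists was tested.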

How the data were processed

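Counts of 6 mouse RNA-seq libraries were used, with groups and replicate numbers taken from the sample titles. Per the labels' protocols, RNA was extracted with TRIzol, captured with oligo-dT beads, fragmented and amplified by PCR. The submitters' processing notes name HISAT2 2.1.0 and build GRCm39. The authors deposited whole-number read counts per gene without normalization. For the counting program, its annotation, strand setting and treatment of multiply mapped reads, nothing is stated: not given in the sources used here.

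Of 32377 Ensembl identifiers 30529 matched a symbol, and the 1848 others (0.495% to 0.596% of counts) stayed in the tests. Biotypes, exonic lengths (97.7% of tested genes) and APPRIS principal transcript lengths (76.1% of tested genes, 78 of 78 members) came from GENCODE M21. That annotation is of an older build, so no gene coordinates from it are printed. Promoter windows came from RefSeq (GRCm38.p6) and their coordinates are of that build.

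Genes kept by filterByExpr were normalized by the TMM method. The quasi-likelihood test (glmQLFit, then glmQLFTest, edgeR 4.0.16, R 4.3.3) was run with group as the only term and Benjamini-Hochberg adjustment over 17022 genes at 0.05. SE is the log2 fold change divided by the square root of F. The common biological coefficient of variation was 7.62%. This fit and the removal of exonic length were tested on simulated data, and the other alternatives were not. A count of 3 corresponds to 0.125 to 0.155 CPM. PCR reads carry no molecular identifiers, so this floor covers counting error only.

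The members and lists were chosen with earlier results of these data known, so no list was tested. Named genes were the 6 members past the threshold with the largest and the 6 with the smallest log2 fold change, the 4 most abundant per exonic kilobase and 3 longest of each subunit, members with paralogs or other roles, members not past the threshold and the 2 list genes of smallest adjusted p in each direction. Mrps18c over Mrps18b was added after its values were seen, as were Gabpa, Nrf1 and Yy1.

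Alternatives were DESeq2 1.42.0, voom of limma 3.58.1, RLE, upper-quartile and library-size scaling, other filters, glmTreat at 1.2-fold, the replicate number as a block, leaving out each library, splines with 4 degrees of freedom removing exonic or exonic and intronic length, and a fit without genes of other cell types and mitochondria. Genes with no annotated length were left uncorrected in those fits. Removal of principal transcript length was added after the data were seen, and genes lacking that length were likewise left uncorrected. Replicates differed by more than sampling noise, with chi-square per gene of 2.39 to 4.53 between TNFR2-deficient libraries, 15.5 and 20.8 between TNFR2-positive library 1 and the others, and 2.56 between those.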

Additional observations from a re-analysis of the deposited data

How the results depend on the processing

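Over 19 alternatives the members called higher numbered 41 to 70. The share of all genes tested that were higher ran from 20.4% (all genes with at least 1 count kept, 67 members) to 38.8% (exonic length removed, also 67 members). The 70 came with upper-quartile scaling, where 37.9% of all genes were higher. Of the 64 members, 31 kept their call in all alternatives, and the share of all genes that did so was not computed. The 1 lower call, Mrps18b, was lost in 5. With principal transcript length removed, an alternative chosen after seeing the data, 41 members were higher (12 small-subunit) and 6 lower (3 large, 3 small). The medians were 0.26 (large) and 0.16 (small), and over all genes 31.6% were higher and 32.9% lower. With exonic and intronic length removed 59 were higher and 2 lower (1 large), beside 38% and 29.8% of all genes. The medians were 0.33 and 0.26. Upper-quartile scaling, keeping all genes with at least 1 count, and glmTreat each gave 0 lower members, hence 0 lower small-subunit members. Over all genes 32.1%, 20.6% and 27% were lower in these fits. Leaving out 1 library gave 56 (without TNFR2-deficient library 2, beside 30% of all genes) to 67 (without TNFR2-positive library 3, beside 33.2%) higher. It gave 0 to 1 lower, beside 32.4% to 33.1% of all genes. The 1 lower member was small-subunit, and its call was lost without TNFR2-deficient library 3 or TNFR2-positive library 1. The large-subunit share was 66.0% and 66.2% per exonic kilobase and, in TNFR2-positive libraries, 66.2% per principal transcript kilobase. Higher calls made up 50.7% of all calls, 57% with exonic and 56.1% with exonic and intronic length removed. With principal transcript length removed 16 members turned from a positive to a negative log2 fold change, 3 of them past the threshold. They included Mrpl12 (-0.070), Mrpl23 (-0.16), Mrpl42 (-0.28), Mrpl24 (-0.32), Mrps18a (-0.12) and Mrps9 (-0.25), and outside the 78 Polg turned (0.061). With exonic and intronic length removed 4 members turned negative and 1 positive, among them Mrpl12 (-0.016) and Mrpl24 (-0.19), and outside the 78 Dhx30 (0.14) and mt-Rnr2 (0.0044) turned. With exonic length removed 1 member turned negative and 2 positive, among them Mrps10 (0.27), and Dhx30 turned (0.15). The cause was not tested. Libraries of the same replicate number did not deviate together (r of 0.037, 0.054 and -0.061), so the numbers were not taken as a pairing. The fit with the replicate block gave 65 members higher and 1 lower, beside 35.3% and 34.4% of all genes.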

Other observations

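Proteins of the mitochondrial ribosome reach the matrix through the import machinery of the outer and inner membranes. Of 23 import genes 14 were higher in TNFR2-deficient libraries, 4 were lower and 5 did not pass (edgeR), with a median log2 fold change of 0.24 and beside 35.1% higher over all genes tested. Tomm22, a receptor of the outer membrane, stood at 108.7, 110.4 and 101.0 against 65.5, 72.3 and 73.5 CPM (0.60, edgeR adjusted p = 9.19e-06). Pam16, a part of the import motor, stood at 15.7, 17.2 and 14.9 against 7.84, 7.73 and 9.41 CPM (0.93). Pmpca, a subunit of the peptidase that removes import signals, was lower at 41.9, 38.8 and 40.2 against 58.7, 53.8 and 55.9 CPM (-0.48), and so was Hspa9, the matrix chaperone of the motor, at 153, 156 and 158 against 209, 199.6 and 213 CPM (-0.41). The groups lay apart in these 4 genes. With principal transcript length removed 10 import genes were higher and 7 lower, beside 31.6% and 32.9% of all genes.

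The table also held 4 pseudogenes of these ribosomal protein genes that were abundant enough to test, each under 3.2 CPM in every library. Mrpl23-ps1 passed the threshold with a log2 fold change of 0.80 (edgeR adjusted p = 0.0432) although its groups overlap, at 2.55, 3.16 and 1.75 against 0.814, 2.098 and 1.405 CPM. Mrps36-ps1 (0.74), Mrps36-ps2 (0.70) and Mrpl48-ps (0.12) did not pass. Reads can be split between such copies and the functional gene, and the authors' treatment of such reads is not given in the sources used here.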
